A study of Mus musculus with 12 samples.

Results

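Of 13547 genes and unnamed probes (features) measured in the mouse hypothalamus, 6050 differed in the same direction in females and in males between mice raised in small litters and control mice. Each member was chosen by the sign of its 2 differences, small litter minus control, one over the 6 female arrays and one over the 6 male arrays. By that rule 2910 features (21.5%) were higher in small-litter mice of both sexes and 3140 (23.2%) were lower in both. Together they are 44.7% of those tested. Of the members, 4818 carried a gene name. A further 7496 features went in opposite directions in the sexes and 1 had a difference of exactly 0 in a sex.

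Raising pups in a small litter leaves more milk for each pup and serves in rodents to model overfeeding before weaning. The hypothalamus houses the neurons that sense energy stores, among them arcuate neurons that make neuropeptide Y or melanocortins and drive or restrain feeding. It also holds the neurosecretory cells that govern the pituitary and circuits that differ between the sexes.

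All 12 mice were of the FVB/NJ-Jax strain and were taken at postnatal day 180. The 4 groups were female small litter, female control, male small litter and male control, with 3 mice in each and 1 Illumina bead array of hypothalamic total RNA per mouse. The number of pups in either kind of litter is not given in the sources used here. The mice are labelled as biological replicates. Precision is limited by the 3 arrays per group.

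Levels are log2 intensities after background correction and quantile normalization, and differences are on the same scale. Errors are standard errors of a linear model in limma that holds litter and sex, and p-values are 2-sided and adjusted by Benjamini-Hochberg over all 13547 features. A probe counted as detected on an array at a detection p under 0.01.

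The arrays themselves differed in ways that bear on the values below. Median bead signal was 112 to 118 in female small-litter mice and 121 to 127 in female controls, and 103 to 108 in male small-litter mice and 107 to 108 in male controls. On the first principal component, 27.0% of the variance, male small litter 2 and 3 stood at 21.4 and 27.9, and the next highest array was at 4.62. Markers of meningeal fibroblasts were high in female control 3 and male control 2. Xist was detected on the 6 female arrays, and Kdm5d and Eif2s3y on the 6 male arrays, as the labels require. The hypothalamic genes Cartpt, Oxt and Npy were detected on all 12 arrays.

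The sexes had little of the litter difference in common. Over the 13547 features the female and the male difference had a Pearson correlation of -0.12 and a Spearman correlation of -0.14, given as a description because the features share the same 12 arrays. Among the 500 largest female differences 239 (47.8%) had the same sign in males, and among the 500 largest male differences 207 (41.4%) had the same sign in females. When male small litter 2 and 3 were left out, 6924 features (51.1%) had one direction and the Pearson correlation was 0.041.

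The differences of the members were small. The lesser of a member's 2 differences had a median of 0.051 and was over 0.2 in 281 members, 99 higher and 182 lower in small-litter mice. Among features with opposite directions, 460 passed the same mark. Over 0.4 there were 18 members, 1 higher and 17 lower, and 15 features with opposite directions. Among the 17 were the meningeal genes Slc6a13, Igf2, Ogn and Ptgds. Without the 2 arrays with high meningeal markers, the fitted difference was 0.031 for Slc6a13, 0.15 for Igf2 and 0.26 for Ogn. Ptgds stayed lower in both sexes under every alternative, as did Kl, Thsd4, Zfp750 and Dnase2a, also among the 17. Whether the excess of lower members holds without those arrays was not tested. Members were slightly dimmer than the other features, with a median level of 7.51 against 7.90, and 83.5% of them were detected on all 12 arrays, against 85.7% of the others.

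Whether a feature kept one direction depended on single arrays and on the scaling. After each array was removed in turn, 1598 members (26.4%), 783 higher and 815 lower, had kept the same direction in both sexes throughout. Under median scaling in place of quantile normalization, the median of all features moved to -0.094 (-0.066 in females and -0.12 in males). The members were then 983 higher and 6877 lower, against 2910 and 3140, so that directions given below hold relative to the quantile-normalized arrays unless stated.

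No feature passed the test of the litter effect, and the smallest adjusted p was 0.625 (limma). At an unadjusted p under 0.05 there were 685 features, 5.06% of those tested, with 332 (2.45%) higher and 353 (2.61%) lower. Of these 685, 670 were members, and since agreement in sign enlarges the mean effect, nothing is read from that share. limma with trend and robust settings and limma with array weights also called 0 features. The test of the difference between female and male effects called 0 features, with 1321 at an unadjusted p under 0.05, 73 of them members.

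**Figure D1:**
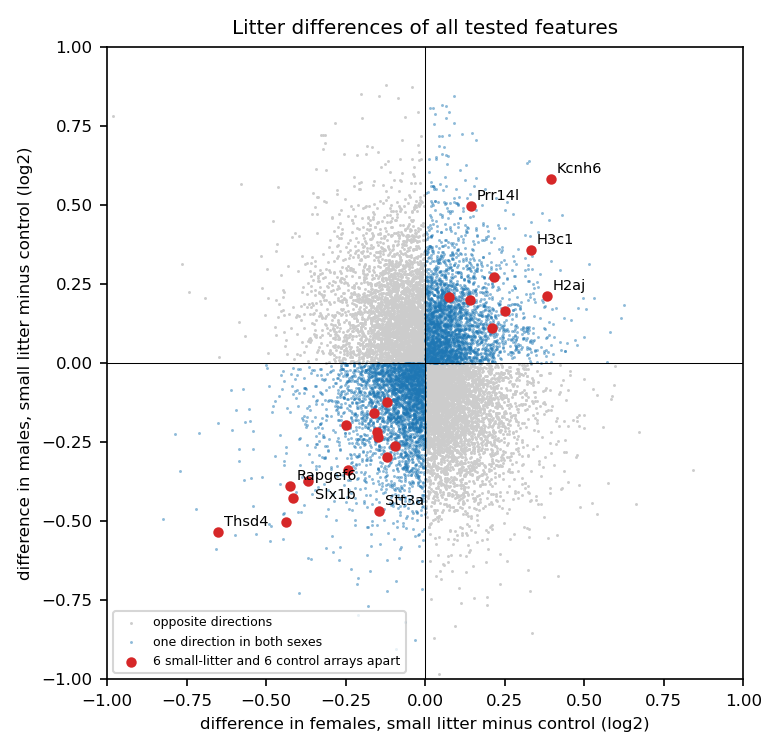
Difference between small-litter and control mice in females (horizontal axis) and males (vertical axis), log2 scale, for 13535 of the 13547 features; 12 lie outside the axes. Blue points are the features with one direction in both sexes, grey points those with opposite directions, and the 23 red points those whose 6 small-litter and 6 control arrays do not overlap, some with their gene name.

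Complete separation of all 6 small-litter arrays from all 6 control arrays was found for 23 features (0.17%), 9 higher and 14 lower, and such a feature is a member by construction. The 9 higher and 8 of the 14 lower features carry a gene name. None of the 17 genes had an adjusted p under 0.815. Over so many features, some separate completely with no litter effect at all. The count of 23 was not compared with a chance rate, and the genes below are a description.

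The 9 higher genes began with Kcnh6, a voltage-gated potassium channel of the ether-à-go-go-related family. Its level was 5.01, 5.33 and 4.96 in female small-litter mice against 4.96, 4.53 and 4.62 in female controls, and 5.11, 5.46 and 5.28 in male small-litter mice against 4.53, 4.73 and 4.84 in male controls. It was detected on 4 small-litter arrays and on 0 control arrays, so only a bound could be set, at least 1.11-fold higher in small-litter mice (adjusted p = 0.815, limma; means 5.19 in small-litter mice and 4.70 in controls). The lowest small-litter array lay just above the highest control array. Kcnh6 passed the filter, detection on 3 or more arrays, only through small-litter arrays. Its direction is therefore not independent of the filter.

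Members that concern histones came next. H3c1, a replication-dependent gene of histone H3, had 4.93, 5.0 and 5.15 in female small-litter mice against 4.74, 4.52 and 4.83 in female controls, and 5.19, 4.87 and 5.18 in male small-litter mice against 4.82, 4.68 and 4.67 in male controls. H3c1 was detected on 3 small-litter arrays and 0 control arrays, which gave at least 1.01-fold higher in small-litter mice (adjusted p = 0.815, limma; means 5.05 in small-litter mice and 4.71 in controls), a bound close to no difference. Like Kcnh6, H3c1 passed the detection filter only through small-litter arrays. H2aj, a variant of histone H2A, had 7.38, 7.31 and 7.58 in female small-litter mice against 7.05, 6.85 and 7.22 in female controls, and 7.31, 7.47 and 7.59 in male small-litter mice against 7.20, 7.27 and 7.26 in male controls, a difference of 0.30 ± 0.084 (SE, n = 6 each; 0.38 in females and 0.21 in males). Both genes were higher in every small-litter array than in any control array. Npat, which activates transcription of replication-dependent histone genes, had 5.78, 5.95 and 6.15 in female small-litter mice against 5.59, 5.66 and 5.54 in female controls, and 5.63, 5.44 and 5.48 in male small-litter mice against 5.42, 4.99 and 5.30 in male controls, a difference of 0.32 ± 0.088. Npat was separated within each sex, but the male small-litter arrays overlapped the female controls.

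Of 30 core histone genes listed, 15 were measured, H3c1 included, of which 4 were higher in both sexes and 4 lower in both. One direction was thus seen for 53.3%, against 44.7% of all features. The median difference of the 15 genes was 0.0078 (-0.030 in females and 0.048 in males), against -0.0052 over all features. H4c9, a histone H4 gene, was the lowest of them, with 6.47, 7.02 and 6.82 in female small-litter mice against 6.86, 6.69 and 7.47 in female controls, and 6.56, 6.50 and 6.80 in male small-litter mice against 7.11, 7.0 and 6.96 in male controls and a difference of -0.32 ± 0.13 (adjusted p = 0.909, limma). The males were separated and the females overlapped.

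The promoters of H2aj, Npat and H4c9 are shown because they belong to histone-related members that went opposite ways. They run from 250 bases before to 50 bases after the gene start, 5′ to 3′ on the strand of the gene, as RefSeq gives them on GRCm38.p6. Capitals mark CCAAT or its reverse complement ATTGG, and TATAAA or its reverse complement TTTATA, searched on both strands with no overlap between the 2 motifs.
H2aj (chr6:136807998-136808297, plus strand): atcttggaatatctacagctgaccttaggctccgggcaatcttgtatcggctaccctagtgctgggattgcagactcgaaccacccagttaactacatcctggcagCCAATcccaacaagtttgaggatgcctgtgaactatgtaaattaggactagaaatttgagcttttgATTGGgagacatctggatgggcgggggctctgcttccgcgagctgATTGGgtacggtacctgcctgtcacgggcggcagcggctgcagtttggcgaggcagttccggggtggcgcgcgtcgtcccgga
Npat (chr9:53536797-53537096, plus strand): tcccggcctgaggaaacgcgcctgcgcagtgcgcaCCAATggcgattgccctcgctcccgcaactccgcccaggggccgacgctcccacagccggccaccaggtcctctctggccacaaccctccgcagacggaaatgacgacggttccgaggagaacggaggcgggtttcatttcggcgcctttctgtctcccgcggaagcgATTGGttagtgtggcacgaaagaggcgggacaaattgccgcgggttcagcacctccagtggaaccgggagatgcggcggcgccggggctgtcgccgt
H4c9 (chr13:22041313-22041612, minus strand): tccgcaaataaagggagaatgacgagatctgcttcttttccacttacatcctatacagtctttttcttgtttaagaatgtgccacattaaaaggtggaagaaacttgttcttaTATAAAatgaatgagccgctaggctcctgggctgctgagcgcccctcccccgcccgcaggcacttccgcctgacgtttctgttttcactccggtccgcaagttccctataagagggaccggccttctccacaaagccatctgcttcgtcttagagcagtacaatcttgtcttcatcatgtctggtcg
CCAAT lay on the gene's strand from base -144 in H2aj and from base -215 in Npat, and on the other strand from bases -78 and -33 in H2aj and from base -47 in Npat, counted from the gene start. The H4c9 window held 1 TATAAA, from base -137, and 0 CCAAT. Of 32851 promoters of the same length, 37.4% held CCAAT and 13.6% held TATAAA on either strand. A match describes the letters only.

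Mitochondrial members included Ndufs6, Triap1 and Nfs1, all higher, while Sdhd and Myo19, described below, were lower. Ndufs6, an accessory subunit of respiratory complex I, had 12.81, 12.76 and 12.80 in female small-litter mice against 12.54, 12.54 and 12.66 in female controls, and 12.83, 12.73 and 12.71 in male small-litter mice against 12.62, 12.64 and 12.68 in male controls. Its difference was 0.16 ± 0.060 (0.21 in females and 0.11 in males; adjusted p = 0.909, limma), small but with no overlap between the litters. Triap1, which carries phospholipids between the mitochondrial membranes, ranged from 8.67 to 9.01 in small-litter mice and 8.51 to 8.66 in controls, a difference of 0.17 ± 0.067. Nfs1, the cysteine desulfurase that supplies sulfur for iron-sulfur clusters, had 9.24, 9.13 and 9.24 in female small-litter mice against 9.10, 9.04 and 8.78 in female controls, and 9.42, 9.36 and 9.53 in male small-litter mice against 9.18, 9.19 and 9.11 in male controls, a difference of 0.25 ± 0.071. It was separated within each sex, with 1 female small-litter array below the highest male control. Slc25a3, the phosphate carrier of the inner membrane, was also separated within each sex, with a difference of 0.19 ± 0.071 (0.16 in females and 0.22 in males).

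The remaining 4 genes with complete separation upward were Sec22c, Cuta, Prr14l and Ccdc65. Sec22c, a protein of transport between endoplasmic reticulum and Golgi, had 6.60, 6.62 and 6.45 in female small-litter mice against 6.27, 6.29 and 6.35 in female controls, and 6.52, 6.51 and 6.41 in male small-litter mice against 6.29, 6.29 and 6.36 in male controls, a difference of 0.21 ± 0.062. Cuta, linked to the anchoring of acetylcholinesterase, ranged from 10.85 to 11.05 in small-litter mice and 10.51 to 10.84 in controls, a difference of 0.24 ± 0.077. For Prr14l the range was 6.37 to 6.96 in small-litter mice and 5.97 to 6.31 in controls and the difference 0.32 ± 0.10 (0.14 in females and 0.50 in males), with male small litter 3 far above the others. Ccdc65, a part of the motile cilium, ranged from 7.84 to 8.25 in small-litter mice and 7.79 to 7.83 in controls, a difference of 0.14 ± 0.072, and it was the 1 gene of the 17 that lost its common direction under median scaling.

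Lower in small-litter mice was Thsd4, a matrix protein related to the ADAMTS family that binds fibrillin, which had the largest difference of the 17 genes. Its level was 4.48, 5.03 and 4.65 in female small-litter mice against 5.09, 5.16 and 5.87 in female controls, and 4.84, 5.0 and 4.49 in male small-litter mice against 5.32, 5.26 and 5.35 in male controls. The difference was -0.59 ± 0.14 (-0.65 in females and -0.54 in males; adjusted p = 0.815, limma), and Thsd4 was detected on 1 small-litter array and 5 control arrays. Female control 3, one of the arrays with high meningeal markers, was the highest. When 1 array was left out, the fitted difference ranged from -0.65 to -0.48. Its sign is then fixed by the complete separation.

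Stt3a, a catalytic subunit of the enzyme that attaches N-glycans to new proteins, had 7.49, 7.53 and 7.50 in female small-litter mice against 7.68, 7.66 and 7.62 in female controls, and 7.32, 7.09 and 7.02 in male small-litter mice against 7.65, 7.62 and 7.56 in male controls. The difference of -0.31 ± 0.079 held -0.15 in females and -0.47 in males, and without male small litter 2 and 3 it was -0.19. Its arrays lay close together within females, and the male small-litter arrays were the lowest of all. Of the other 31 measured glycosylation genes, 9 were higher in both sexes and 6 lower in both, with a median of 0.0053. That is 48.4% with one direction, against 44.7% of all features. Ost4, a small subunit of the same enzyme, was among the higher ones at 0.13 ± 0.060.

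The other 6 separated genes named here that were lower differ in what they do. Rapgef6, an exchange factor for Rap proteins, had 7.20, 7.40 and 7.15 in female small-litter mice against 7.57, 8.03 and 7.42 in female controls, and 7.35, 7.20 and 6.69 in male small-litter mice against 7.49, 7.43 and 7.49 in male controls, a difference of -0.41 ± 0.12. Plppr5, a membrane protein that shapes neuronal filopodia, had 9.03, 9.03 and 8.99 in female small-litter mice against 9.18, 9.25 and 9.11 in female controls, and 8.97, 8.98 and 8.91 in male small-litter mice against 9.16, 9.10 and 9.06 in male controls, a difference of -0.16 ± 0.058 that was the same in both sexes at this precision (-0.16 in females and -0.16 in males). Map1s, a microtubule-associated protein, differed by -0.12 ± 0.059 and was the smallest of the 17 in size. Among the rest, Slx1b, a structure-specific endonuclease subunit, differed by -0.37 ± 0.096, Plscr1, a phospholipid scramblase, by -0.22 ± 0.065, and Hectd2, a ubiquitin ligase, by -0.19 ± 0.061. Every one of these was lower in each small-litter array than in each control array.

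**Figure D2:**
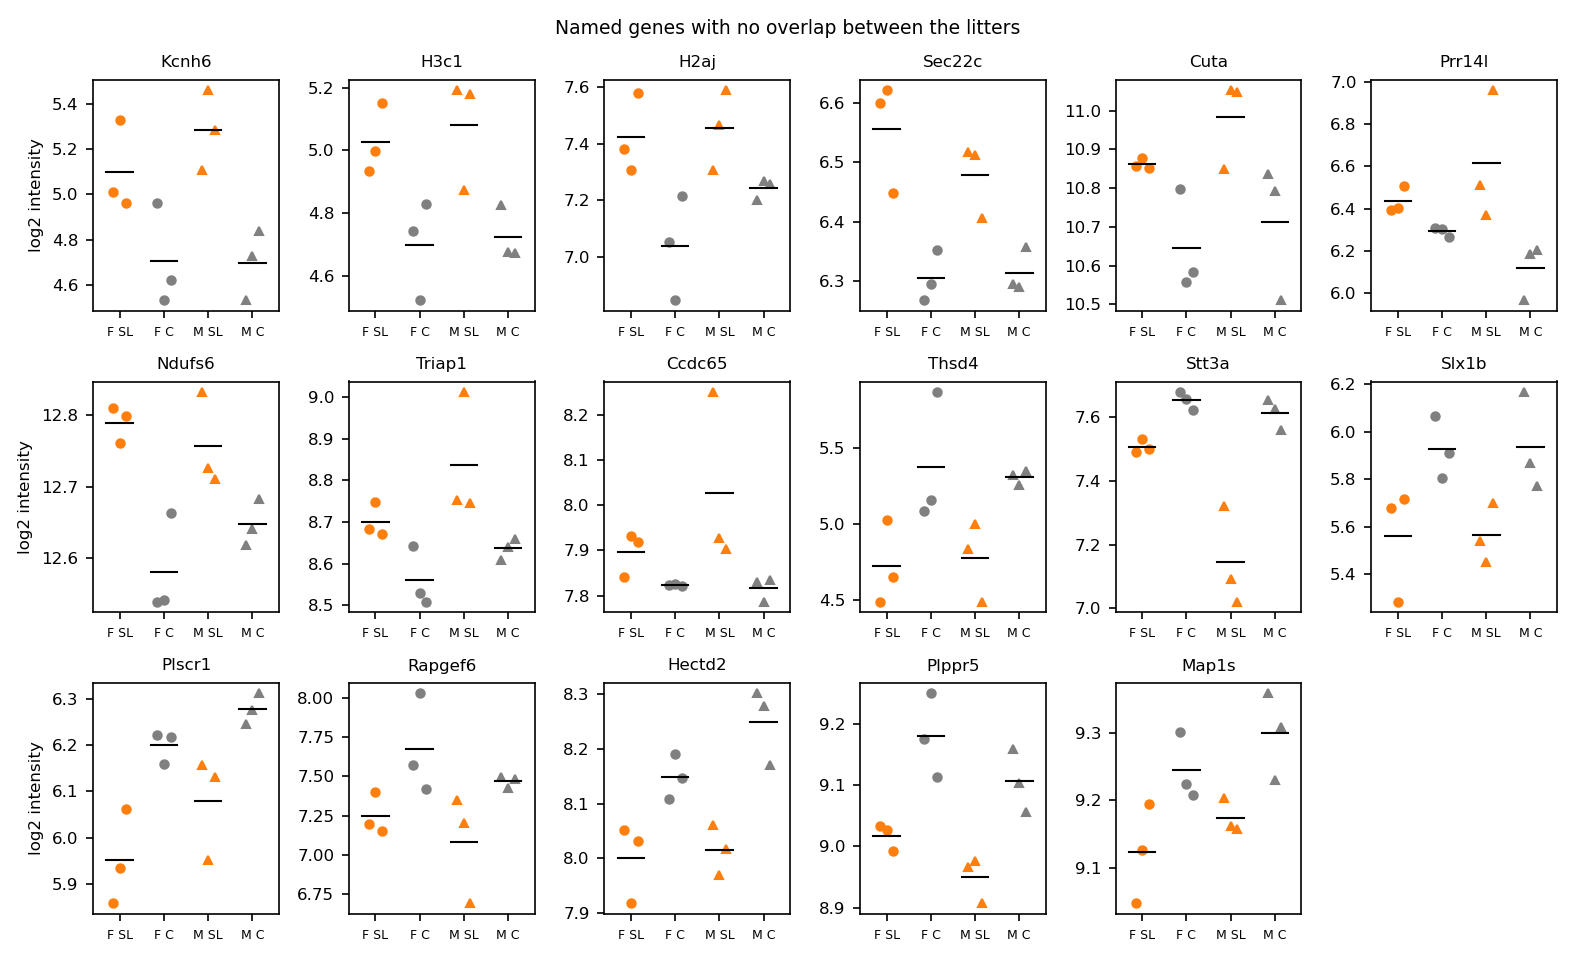
Log2 intensity on each array for the 17 named genes whose litters do not overlap. F and M are females and males, SL (orange) is small litter and C (grey) control, each point is 1 mouse and the black line is the mean of 3; each panel has its own vertical axis, which does not start at 0, and the 9 higher genes come before the 8 lower ones.

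A weaker form of separation, all small-litter arrays on one side of the controls within females and again within males, held for 62 features (0.458%), 28 higher and 34 lower. A separation in opposite directions held for 136 features (1.0%). Of the 62, 49 had a gene name. Female arrays alone were separated for 1299 features (9.59%) and male arrays alone for 2011 (14.8%). With 3 arrays per group, such separation is common with no litter effect, so the 62 features are likewise only described.

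Several of these genes act in receptor signalling. Socs3, the feedback inhibitor of leptin and cytokine signalling, had 5.31, 5.74 and 5.65 in female small-litter mice against 5.78, 5.80 and 5.76 in female controls, and 5.48, 5.44 and 5.47 in male small-litter mice against 5.83, 5.74 and 5.57 in male controls. The difference was -0.23 ± 0.079 (-0.21 in females and -0.25 in males; adjusted p = 0.909, limma), with the male small-litter arrays close together and below the male controls. Ntrk3, the receptor for neurotrophin 3, had 7.70, 7.46 and 7.83 in female small-litter mice against 7.97, 8.02 and 7.96 in female controls, and 6.99, 7.03 and 7.19 in male small-litter mice against 7.38, 7.30 and 7.43 in male controls, a difference of -0.31 ± 0.073. It was lower in small-litter mice of each sex, and all males lay below all female controls. Pik3ap1, an adapter that binds phosphoinositide 3-kinase, had 4.97, 5.24 and 5.32 in female small-litter mice against 4.93, 4.87 and 4.79 in female controls, and 5.47, 5.53 and 5.52 in male small-litter mice against 5.25, 5.12 and 5.16 in male controls, a difference of 0.32 ± 0.071 (0.31 in females and 0.33 in males). Pik3ap1 was higher in each small-litter array than in the controls of its own sex, while the female small-litter arrays overlapped the male controls.

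Other members with a small unadjusted p were mixed in kind. Rasal1, which switches off Ras, differed by -0.42 ± 0.11 and was separated within each sex. Dnase2a, the lysosomal DNase, had 5.16, 5.31 and 5.03 in female small-litter mice against 5.67, 6.01 and 5.27 in female controls, and 5.21, 4.88 and 4.76 in male small-litter mice against 5.50, 5.49 and 5.40 in male controls, a difference of -0.50 ± 0.11 with the males separated. Kctd12b differed by -0.49 ± 0.11 and Dap by -0.45 ± 0.12, both lower with the males separated. Plekha4 was detected on 0 small-litter and 5 control arrays, at least 1.09-fold lower in small-litter mice (adjusted p = 0.815, limma; means 4.81 in small-litter mice and 5.19 in controls). Myo19, a mitochondrial myosin, was detected on 0 small-litter and 3 control arrays, with means of 4.63 in small-litter mice and 5.01 in controls, and its bound was under 1. Plekha4 and Myo19 passed the detection filter only through control arrays, so their direction is not independent of it. On the other side, Hspa12a, of the Hsp70 family, was higher by 0.45 ± 0.12, Has1, a hyaluronan synthase, by 0.42 ± 0.12, Daw1, which helps assemble the ciliary dynein arm, by 0.42 ± 0.12, Hmgcll1, an HMG-CoA lyase-like enzyme, by 0.30 ± 0.083, and Dph3, needed for diphthamide synthesis, by 0.25 ± 0.070.

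Vascular and matrix genes were among those lower within each sex. Gja4, the gap junction protein connexin 37 of arterial endothelium, differed by -0.31 ± 0.088 (-0.24 in females and -0.37 in males), and Col8a1, a collagen of basement membranes, by -0.29 ± 0.089. Of 14 measured markers of brain endothelial and mural cells, 6 (42.9%) were lower in both sexes and 1 (7.14%) was higher in both. Over all features the shares were 23.2% and 21.5%. The median of these markers was -0.062 (-0.057 in females and -0.13 in males). Without the 2 arrays with high meningeal markers, 2 were lower in both sexes and 1 higher in both, and the median was -0.015. In bulk tissue, fewer cells of a type and less RNA per cell cannot be told apart.

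The choice of probe mattered to membership. Of 1789 member genes with a second detected probe, 559 (31.2%) had that probe in the same direction in both sexes and 321 (17.9%) had it in the opposite direction in both. For comparison, 44.8% of 2401 genes outside the members had a second probe with one direction in both sexes, whichever that was. Among the genes named so far, Kcnh6, Ntrk3 and Plppr5 had a second probe that went the same way in both sexes. Only the next brightest detected probe was read for this. For H2aj, Ndufs6, Sec22c, Cuta, Dph3, Nfs1, Ccdc65, Slx1b, Plscr1, Rapgef6, Hectd2 and Kctd12b it did not. Plppr5 was the closest, with a second-probe difference of -0.16 ± 0.10. In females the second probes of Kcnh6 and Ntrk3 were near 0, at 0.0062 and -0.0041, against 0.23 and -0.28 in males. The second probe went the other way in both sexes for Plscr1, with 0.10 ± 0.12, for Kctd12b, with 0.11 ± 0.12, and for Ccdc65, with -0.035 ± 0.090. Among probes dimmer still, one of Sec22c, with 0.17 ± 0.10, went the same way in both sexes as the probe used. Of such probes of Slx1b, one went the same way in both sexes, with -0.25 ± 0.15, and another the opposite way, with 0.19 ± 0.14. The dimmest detected probe of Ntrk3 differed in sign between the sexes, with 0.035 in females and -0.073 in males.

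The feeding peptides, the signals released by arcuate and lateral hypothalamic neurons, were not higher or lower as a group. Of 18 measured, 2 were higher in both sexes and 5 lower in both, with a median of -0.021 (-0.18 in females and 0.084 in males). One direction was held by 38.9% of the peptides, against 44.7% of all features. Npy, which drives feeding, had 9.04, 9.08 and 9.47 in female small-litter mice against 9.22, 9.77 and 9.23 in female controls, and 9.16, 9.34 and 8.91 in male small-litter mice against 9.30, 9.23 and 10.93 in male controls, a difference of -0.45 ± 0.25 (-0.21 in females and -0.68 in males; adjusted p = 0.909, limma). Male control 3 was far above the other 11 arrays, and the litters overlapped in both sexes. Pomc, the melanocortin precursor, went opposite ways (-0.35 in females and 0.31 in males), as did Cartpt (-0.019 in females and 0.15 in males), and Mc4r, the melanocortin receptor, did as well (-0.24 in females and 0.0009 in males). Cck, a satiety peptide, was one of the 2 higher peptides at 0.19 ± 0.13. Agrp and Lepr were not analysed here.

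Of 21 measured receptors of these peptides, 6 were lower in both sexes and 1 higher in both, with a median of -0.043 (-0.072 in females and -0.045 in males). One direction was thus seen for 33.3% of them, against 44.7% of all features. Npy2r, a presynaptic receptor for neuropeptide Y, had 6.71, 6.92 and 7.30 in female small-litter mice against 7.14, 7.25 and 7.21 in female controls, and 7.03, 7.25 and 6.90 in male small-litter mice against 7.26, 7.28 and 7.44 in male controls, a difference of -0.24 ± 0.097 (adjusted p = 0.909, limma). Npy5r, a receptor through which neuropeptide Y drives feeding, had 6.71, 6.94 and 6.95 in female small-litter mice against 7.03, 6.89 and 6.97 in female controls, and 7.02, 6.81 and 6.61 in male small-litter mice against 7.27, 7.06 and 7.01 in male controls, a difference of -0.20 ± 0.088. The males were separated for Npy2r and not for Npy5r, and females overlapped for both. Npy1r was the 1 receptor higher in both sexes, by 0.044 ± 0.12.

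Neurosecretory and sex steroid genes counted more lower than higher members, and 47.6% and 55.6% of them had one direction, against 44.7% of all features. Of 21 measured neurosecretory genes, 9 were lower in both sexes and 1, Oxt, was higher in both, with a median of -0.072 (-0.054 in females and -0.033 in males). Chgb, a granin of dense-core vesicles, had 10.85, 10.72 and 10.92 in female small-litter mice against 10.93, 10.97 and 11.02 in female controls, and 10.85, 10.66 and 10.71 in male small-litter mice against 10.92, 10.82 and 10.91 in male controls, a difference of -0.14 ± 0.064 that was alike in both sexes (-0.14 in females and -0.14 in males). Scgn, a calcium-binding protein of secretory cells, differed by -0.28 ± 0.12 (-0.46 in females and -0.10 in males). Of 9 measured sex steroid genes, 5 were lower in both sexes and 0 higher in both, among them Moxd1 at -0.35 ± 0.12 and Gpr83 at -0.17 ± 0.081, and the score of neither list separated the litters. Without male small litter 2 and 3 the neurosecretory median was -0.020, with 6 lower and 2 higher.

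Of 17 measured transcription factors that mark hypothalamic subregions, 8 (47.1%) were lower in both sexes and 1 (5.88%) was higher in both. Over all features the shares were 23.2% and 21.5%. The median of this list was -0.096 (-0.20 in females and -0.014 in males). Zfhx3, which is strong in the suprachiasmatic nucleus, had 10.14, 9.93 and 10.16 in female small-litter mice against 10.08, 10.32 and 10.40 in female controls, and 9.94, 9.45 and 9.98 in male small-litter mice against 10.37, 9.91 and 10.21 in male controls, a difference of -0.28 ± 0.11. Lhx8 differed by -0.38 ± 0.15 and was detected on 1 small-litter array and 3 control arrays. Within females the score of this list was lower in each small-litter array than in each control, and within males the arrays overlapped. Of 22 measured thalamus markers, which report neighbouring tissue, 8 (36.4%) were higher in both sexes and 0 lower in both. Over all features 44.7% had one direction, 21.5% higher and 23.2% lower. The median of the thalamus markers was 0.066 (0.22 in females and -0.037 in males), and their part in these values was not tested.

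Respiratory chain genes, which encode the complexes of oxidative phosphorylation, were the longest list, and 55.1% of them had one direction in both sexes, against 44.7% of all features. Of 69 measured, 33 were higher in both sexes and 5 lower in both, with a median of 0.051 (0.038 in females and 0.066 in males). Besides Ndufs6, Ndufa12, another subunit of complex I, was higher by 0.17 ± 0.069 (0.083 in females and 0.25 in males). Sdhd, the membrane anchor of complex II, was lower by the fit at -0.24 ± 0.095 (-0.25 in females and -0.22 in males). The differences are small, and under median scaling the direction flipped, with 7 higher and 30 lower and a median of -0.037. Relative to all features the median was 0.056 with quantile normalization and 0.057 with median scaling.

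Genes of cholesterol and fatty acid synthesis had 11 of 27 (40.7%) higher in both sexes and 4 (14.8%) lower in both. Over all features the shares were 21.5% and 23.2%. The median of the list was 0.082 (0.019 in females and 0.13 in males). Idi1, the isopentenyl diphosphate isomerase, had 6.70, 7.0 and 6.54 in female small-litter mice against 6.91, 6.64 and 6.40 in female controls, and 6.99, 6.95 and 6.96 in male small-litter mice against 6.84, 6.44 and 6.10 in male controls, a difference of 0.30 ± 0.13 (0.097 in females and 0.51 in males). Fdps, the farnesyl diphosphate synthase, differed by 0.17 ± 0.074 (0.020 in females and 0.32 in males). Cyp46a1, which turns brain cholesterol into its exported hydroxylated form, had 8.30, 8.13 and 8.39 in female small-litter mice against 7.73, 8.19 and 7.92 in female controls, and 8.0, 8.91 and 9.17 in male small-litter mice against 8.15, 8.10 and 7.90 in male controls, a difference of 0.48 ± 0.16, and without male small litter 2 and 3 its male difference was -0.055. The male scores of both the respiratory and this list were higher in every small-litter array than in every control, and the female scores overlapped. This list flipped as well under median scaling, to a median of -0.020, and relative to all features it was 0.087 with quantile normalization and 0.074 with median scaling.

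**Figure D3:**
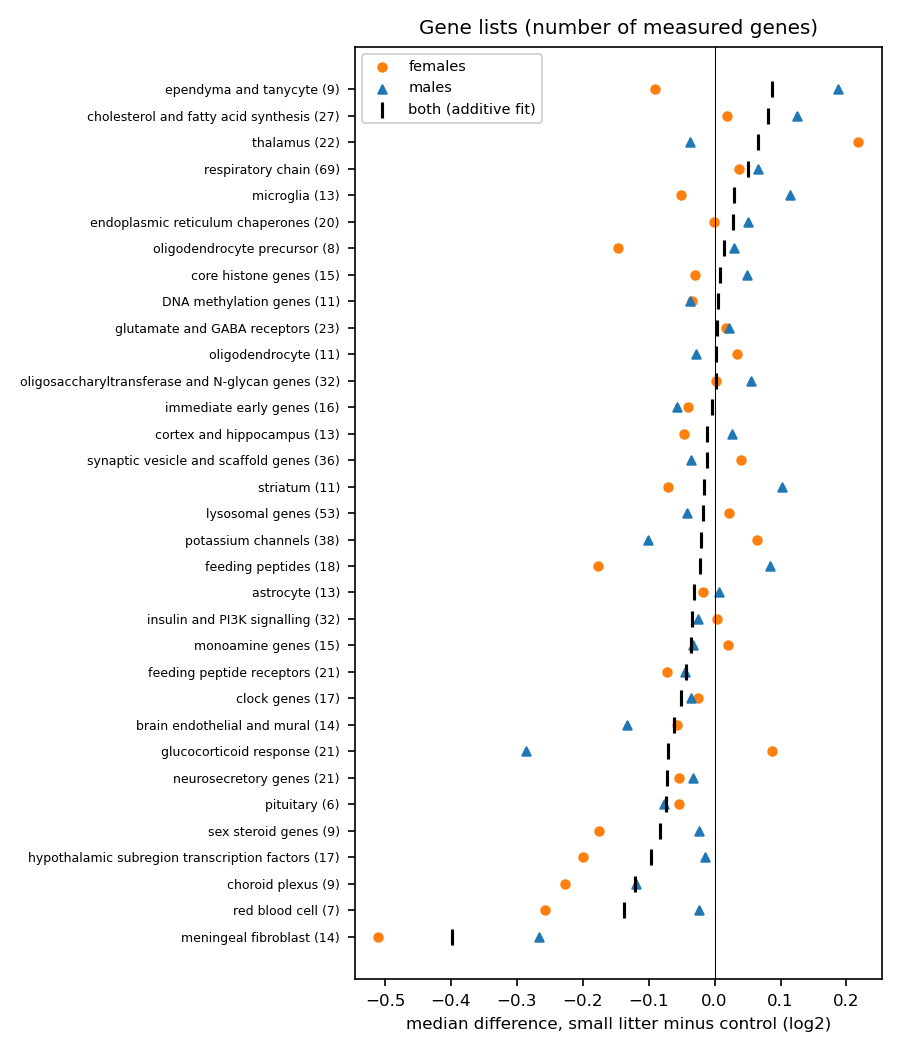
Median difference, small litter minus control, of 33 gene lists on the log2 scale, in females (circles), in males (triangles) and in the additive fit of both (bars), with the number of measured genes in brackets. Most lists lie within 0.1 of 0 in the additive fit, and the meningeal fibroblast list is the lowest at -0.40.

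Meningeal fibroblast markers had 12 of 14 measured genes (85.7%) lower in both sexes and 0 higher in both. Over all features the shares were 23.2% and 21.5%. The median of the markers was -0.40 (-0.51 in females and -0.27 in males). Their score, the mean deviation of the members on an array, was -0.37 to 0.33 in small-litter mice and -0.38 to 1.14 in controls, and the control values of 1.13 and 1.14 came from female control 3 and male control 2. Slc6a13, a GABA transporter of the meninges, had 6.06, 5.88 and 6.27 in female small-litter mice against 6.33, 6.01 and 7.84 in female controls, and 5.96, 6.88 and 5.69 in male small-litter mice against 6.05, 8.27 and 5.98 in male controls. Igf2, the imprinted growth factor, had 10.53, 10.28 and 10.49 in female small-litter mice against 10.63, 10.08 and 12.20 in female controls, and 10.06, 10.84 and 9.82 in male small-litter mice against 10.10, 12.28 and 9.96 in male controls, and Ptgds, the prostaglandin D synthase, ranged from 10.97 to 12.31 in small-litter mice and 11.23 to 12.97 in controls. Both control groups held 1 array far above its group mates for Slc6a13 and Igf2. Without these 2 arrays the median of the list was 0.082 with 4 higher and 1 lower in both sexes, and the differences were 0.031 for Slc6a13, 0.15 for Igf2 and 0.26 for Ogn, another matrix gene of the meninges. The 17 genes with complete separation keep their direction without these arrays by construction, so nothing is read from that.

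**Figure D4:**
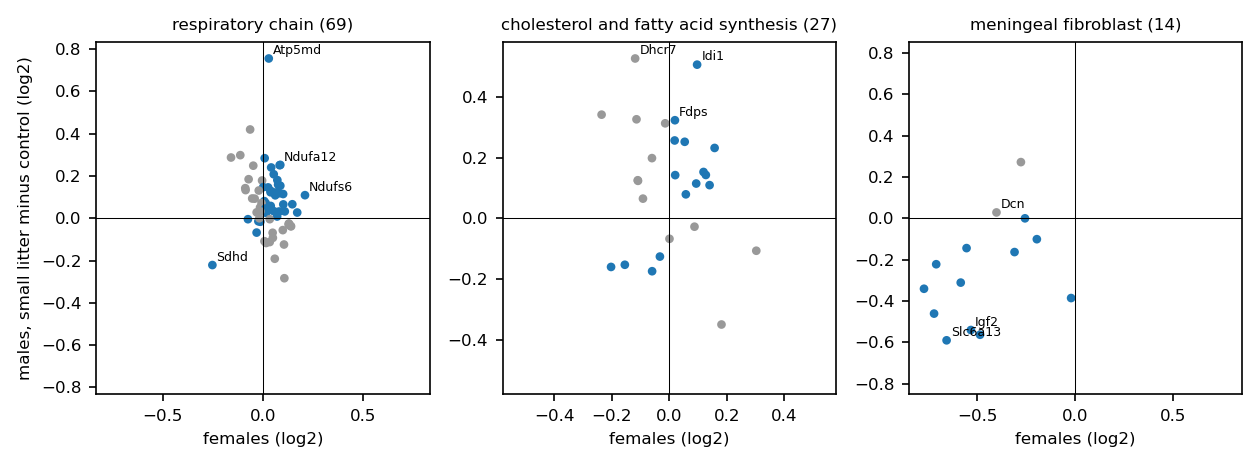
Female (horizontal) and male (vertical) difference, small litter minus control, on the log2 scale for each measured gene of 3 lists, with one direction in blue and opposite directions in grey. In the upper right lie 33 of 69 respiratory chain genes and 11 of 27 lipid synthesis genes, and 12 of 14 meningeal genes lie in the lower left.

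Choroid plexus markers had 4 of 9 genes (44.4%) lower in both sexes and 1 (11.1%) higher in both. Over all features the shares were 23.2% and 21.5%. The other 4 markers went opposite ways, among them Ttr (-1.47 in females and 0.93 in males) and Ecrg4 (-0.47 in females and 0.35 in males). Kl, the anti-ageing protein klotho, had 5.30, 5.62 and 5.65 in female small-litter mice against 5.69, 6.48 and 6.19 in female controls, and 5.37, 5.32 and 5.24 in male small-litter mice against 5.24, 6.49 and 5.83 in male controls, a difference of -0.57 ± 0.18 (-0.60 in females and -0.54 in males). The female arrays were separated and the male arrays overlapped. With both high meningeal arrays left out, the list had 4 lower and 0 higher, and a median of -0.15 in place of -0.12.

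Of 37 measured potassium channels other than Kcnh6, 5 were higher in both sexes and 9 lower in both, with a median of -0.022. Their share with one direction was 37.8%, against 44.7% of all features. Kcnq3, a subunit of the M current that limits repetitive firing, had 5.03, 5.39 and 5.37 in female small-litter mice against 5.39, 5.34 and 5.58 in female controls, and 4.73, 4.89 and 5.04 in male small-litter mice against 5.63, 5.50 and 5.51 in male controls, a difference of -0.41 ± 0.11 (-0.17 in females and -0.66 in males; adjusted p = 0.909, limma). The male groups were apart and the female groups overlapped.

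Lysosomal genes were divided, with 11 of 53 higher in both sexes and 13 lower in both and a median of -0.018 (0.021 in females and -0.041 in males). Their share with one direction, 45.3%, was near the 44.7% of all features. Tcirg1, part of the proton pump that acidifies the vacuole or lysosome, had 6.85, 6.71 and 6.54 in female small-litter mice against 6.36, 6.71 and 6.80 in female controls, and 7.07, 7.20 and 7.19 in male small-litter mice against 6.42, 6.38 and 6.48 in male controls, a difference of 0.40 ± 0.12 (0.076 in females and 0.72 in males; adjusted p of the difference between the sexes 0.404, limma). Man2b1, the lysosomal alpha-mannosidase, differed by -0.36 ± 0.14 (-0.012 in females and -0.71 in males). For both genes the male groups were apart and the female groups overlapped. Ctsh, a cathepsin, differed by -0.26 ± 0.11 and Galc, which breaks down galactosylceramide, by 0.23 ± 0.10.

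Synaptic vesicle and scaffold genes had 9 of 36 higher in both sexes and 6 lower in both, with a median of -0.011 (0.040 in females and -0.036 in males). Their share with one direction was 41.7%, against 44.7% of all features. Apba1, an adapter of presynaptic vesicle release, had 6.56, 6.78 and 6.56 in female small-litter mice against 6.61, 6.35 and 6.47 in female controls, and 6.89, 6.87 and 7.08 in male small-litter mice against 6.54, 6.55 and 6.48 in male controls, a difference of 0.29 ± 0.081. Slc17a7, the vesicular glutamate transporter typical of cortex and hippocampus, differed by 0.48 ± 0.18, and Shank3, a postsynaptic scaffold, by 0.29 ± 0.12. Sv2c, a vesicle protein, was lower at -0.36 ± 0.16. Of these, the males alone were separated for Apba1 and Sv2c, and the litters overlapped in both sexes for Slc17a7 and Shank3.

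Lists that concern insulin, glucocorticoids, clocks and chaperones had fewer members than the 44.7% of all features, or about as many. Insulin and phosphoinositide 3-kinase genes had 3 of 32 higher in both sexes and 5 lower in both, with Foxo1, a transcription factor restrained by insulin, at -0.15 ± 0.074 and Pik3ca, the catalytic kinase subunit, at -0.18 ± 0.085. Glucocorticoid response genes had 1 of 21 higher in both sexes and 6 lower in both, and the other 14 went opposite ways. Their median was -0.071 (0.087 in females and -0.29 in males). Among the lower ones were Tgm2, a transglutaminase, at -0.26 ± 0.096 and Fkbp5, a cofactor of the glucocorticoid receptor, at -0.42 ± 0.22. The score of the glucocorticoid list reached 0.46 in male control 3, against -0.26 to 0.11 in small-litter mice. Within males it was lower in every small-litter array than in every control, and the female arrays overlapped. Clock genes had 1 of 17 higher in both sexes and 7 lower in both, with a median of -0.051 (-0.026 in females and -0.036 in males). Endoplasmic reticulum chaperones had 5 of 20 higher in both sexes and 2 lower in both. Among the higher ones were Calr at 0.43 ± 0.19 (0.052 in females and 0.82 in males) and Sec61b, a translocon subunit, at 0.14 ± 0.065. Pdia3 in the chaperone list was not a member: it stood at 4.13 and 4.13 on male control 1 and 2 and at 10.27 to 12.21 on the other 10 arrays.

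Some members had a large difference in 1 sex and a small one in the other, although no difference between the sexes passed the test. Maged1, a regulator of neurotrophin receptor signalling, had 13.40, 13.35 and 13.52 in female small-litter mice against 13.26, 13.58 and 13.41 in female controls, and 12.73, 12.96 and 12.82 in male small-litter mice against 4.13, 12.55 and 12.83 in male controls, and the difference was 0.0089 in females and 3.00 in males. Male control 1 was at the lowest level of the array, with no detection, while the other 11 arrays were between 12.55 and 13.58. Asap2 was higher by 0.017 in females and 0.81 in males, with male small litter 2 and 3 the highest arrays. In the other direction, Egr3, an immediate early gene, differed by -1.08 in females and -0.20 in males, with female control 2 far above all others, and Sult1a1, a sulfotransferase, by -0.064 in females and -0.82 in males, with male control 3 the highest.

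**Figure D5:**
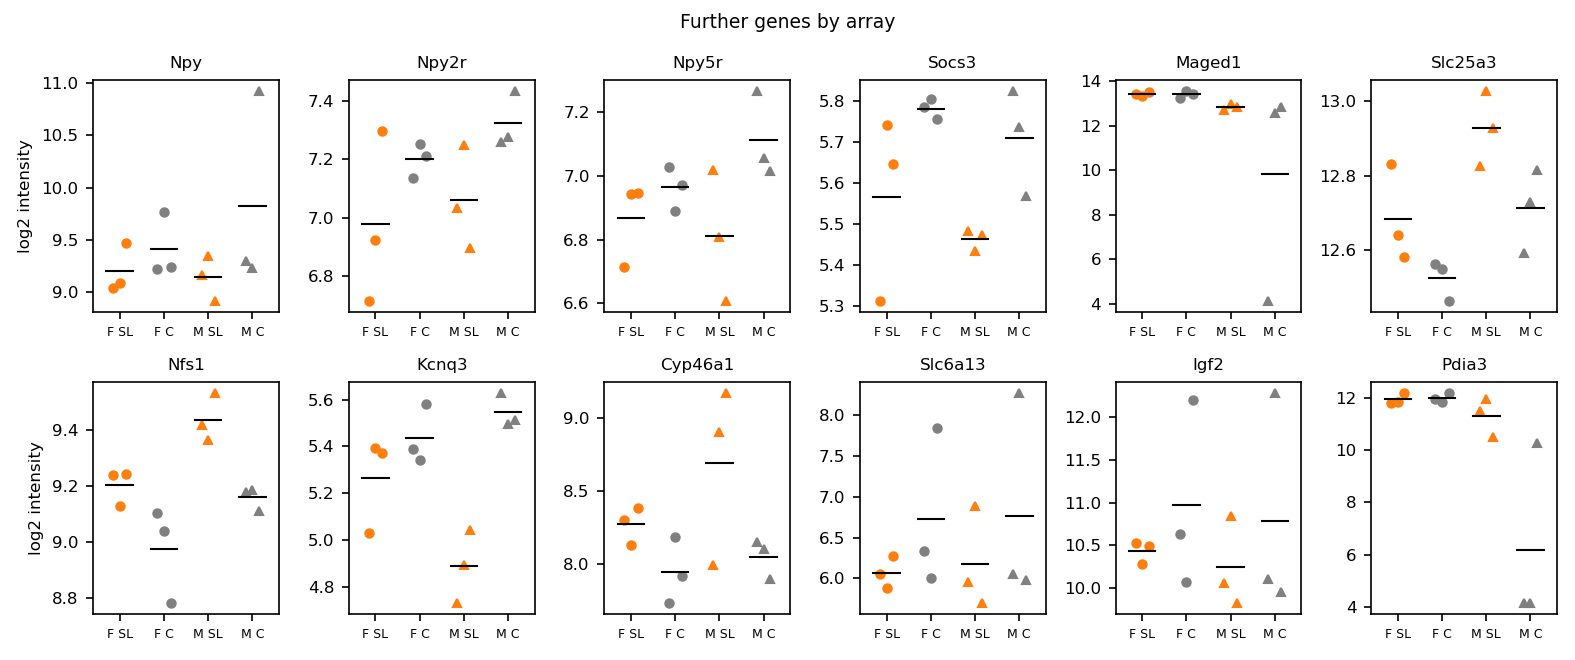
Log2 intensity on each array for 12 further genes, with F and M for females and males, SL (orange) for small litter and C (grey) for control, each point 1 mouse and the black line the mean of 3. Npy, Slc6a13, Igf2, Maged1 and Pdia3 each show 1 or 2 control arrays far from the rest, and Nfs1, Slc25a3 and Socs3 are separated within each sex.

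Members near the limit of the rule had almost no difference in one sex. E430018J23Rik, with -2.98e-05 in females and -0.10 in males, and Ephb6, with 0.36 in females and 3.06e-05 in males, were the members nearest to it. Just outside it were Rtl8a, with -0.038 in females and 0 in males, and S100a6, with 1.82e-06 in females and -0.17 in males.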

How the data were processed

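Per the labels, hypothalamic total RNA from 12 mice was labelled with biotin and read on Illumina bead arrays. The deposited table gives, for 45281 probes, the mean bead intensity, not normalized per the file headers. The same deposited table gives a detection p-value for each array. The authors also deposited processed values on a log2 scale for 20791 probes, made with lumi per the submitters' processing notes (version and settings not given in the sources used here). By comparison with the intensities they are quantile-normalized without background subtraction, and they served as an alternative. No scan or slide batch is given in the sources used here.

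Intensities were normalized with neqc of limma 3.58.1 (R 4.3.3, version 1.17.8 of data.table), which estimates the negative-control background via the detection p-values, adds an offset of 16, quantile-normalizes and takes log2. The 19704 probes detected (p under 0.01) on 3 or more arrays were kept, and the brightest probe stood for a gene. Of the 20791 probes of the processed values, 18003 carried a single gene symbol in the platform annotation, 6 had several and 2782 were not listed; the last 2 kinds stayed unnamed. The litter effect came from lmFit and eBayes with litter and sex as terms (9 residual and 4.90 prior degrees of freedom), and the difference between the sexes from a model with a mean per group, with Benjamini-Hochberg adjustment and a threshold of 0.05. Where a bound is given ("at least"), the mean of the brighter litter was compared with a floor taken on each dim array as the lowest detected value, or the probe's own value if that was higher. The model was tested on simulated data with a log2 change of 1 set in 200 features. It called 196 of them and 8 others. Smaller changes, such as those of most members here, were not simulated.

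The members and the 33 gene lists were chosen with earlier results of these data known. Genes named are those with the smallest p (12 in each direction), the largest lesser difference (8 in each direction), no overlap between the litters or separation within each sex, up to 4 per list, feeding genes and label checks, and up to 3 with the largest excess of one sex. Galc, Npy1r, Oxt and Pdia3 were named after their values were seen. A list's score is its members' mean deviation per array. Alternatives were other values, scalings and offsets, other filters, every probe on its own, other fits, a meningeal score as covariate, and fewer arrays. Same-numbered mice did not deviate together (r from -0.13 to 0.11 over 18 pairs, 1 over 0.1), so the numbers were not used as pairs.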

Additional observations from a re-analysis of the deposited data

Results flagged for a closer look

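In each set of 6 small-litter or 6 control arrays, the highest or lowest array was compared with its nearest neighbour. Of 294 such sets, over 114 genes and 33 list scores, 31 held an array whose gap exceeded Dixon's 95% limit. Apart from feeding genes, the genes were chosen on these same values, and each set mixes the sexes. No chance rate is therefore set beside the count. Values are log2 intensities. Dph3 was lowest in female control 2, at 8.84, with the next of the control arrays at 8.98. Nfs1 was lowest in female control 3, at 8.78, with the next of the control arrays at 9.04. Prr14l was highest in male small litter 3, at 6.96, with the next of the small-litter arrays at 6.51, and it was lowest in male control 1, at 5.97, with the next of the control arrays at 6.19. Triap1 was highest in male small litter 2, at 9.01, with the next of the small-litter arrays at 8.75. Ccdc65 was highest in male small litter 1, at 8.25, with the next of the small-litter arrays at 7.93, and it was lowest in male control 2, at 7.79, with the next of the control arrays at 7.82. Hgs was lowest in female control 2, at 9.37, with the next of the control arrays at 9.44. Maged1 was lowest in male control 1, at 4.13, with the next of the control arrays at 12.55. Thsd4 was highest in female control 3, at 5.87, with the next of the control arrays at 5.35. Rasal1 was lowest in female control 3, at 6.04, with the next of the control arrays at 6.42. Ogn was highest in male small litter 2, at 6.99, with the next of the small-litter arrays at 5.76. Rapgef6 was lowest in male small litter 3, at 6.69, with the next of the small-litter arrays at 7.15, and it was highest in female control 2, at 8.03, with the next of the control arrays at 7.57. Socs3 was lowest in male control 3, at 5.57, with the next of the control arrays at 5.74. Nars2 was lowest in male small litter 3, at 5.01, with the next of the small-litter arrays at 5.41, and it was highest in female control 3, at 5.96, with the next of the control arrays at 5.62. Egr3 was highest in female control 2, at 9.57, with the next of the control arrays at 6.88. Sult1a1 was highest in male control 3, at 9.78, with the next of the control arrays at 7.93. Npy was highest in male control 3, at 10.93, with the next of the control arrays at 9.77. Zfhx3 was lowest in male small litter 2, at 9.45, with the next of the small-litter arrays at 9.93. Scgn was lowest in male control 1, at 5.32, with the next of the control arrays at 5.73. Shank3 was highest in male small litter 3, at 9.53, with the next of the small-litter arrays at 9.01.

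Of the list scores, 8 were set apart in the same way. The neurosecretory genes score was highest in female small litter 3, at 0.21, with the next of the small-litter arrays at -0.011. The sex steroid genes score was highest in female small litter 3, at 0.21, with the next of the small-litter arrays at -0.023. The glutamate and GABA receptors score was lowest in male small litter 2, at -0.068, with the next of the small-litter arrays at 0.008. The oligodendrocyte score was lowest in male control 3, at -0.43, with the next of the control arrays at -0.057. The microglia score was lowest in male control 3, at -0.40, with the next of the control arrays at 0.026. The meningeal fibroblast score was highest in male small litter 2, at 0.33, with the next of the small-litter arrays at -0.18. The ependyma and tanycyte score was lowest in female small litter 1, at -0.14, with the next of the small-litter arrays at -0.012. The pituitary score was highest in female small litter 3, at 0.75, with the next of the small-litter arrays at -0.090.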

How the results depend on the processing

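The litter effect called 0 features under all 26 alternatives run, the replicate block, the added covariate and each removal of an array included. The test of the difference between the sexes called 0 to 190 features when 1 array was left out, 190 without male small litter 1, 1 without male control 3 and 0 otherwise. The count with one direction was 18489 with no detection filter, of 38642 features tested. Other alternatives gave 5053 to 8966, and removal of 1 array gave 5735 to 6616. The count with no overlap between the litters was 45 under median scaling, 59 with no detection filter, 96 without both arrays with high meningeal markers, 85 without male small litter 2 and 3, and 33 to 54 without 1 array. Fewer arrays make separation easier by construction. Of 1129 values for 44 genes, 4 reversed: Slc6a13 at 0.031, Igf2 at 0.15 and Ogn at 0.26 without both high meningeal arrays, and Ogn at 0.044 with the meningeal score as covariate. No value passed the threshold. Gna12 and Cyp46a1 lost their common direction without male small litter 2 and 3. The authors' processed values, no background correction and an offset of 50, all quantile-normalized, kept 98.5% to 99.1% of the members measured. Median scaling, the only other scaling tried, kept 68.1%. The median size of a member's difference was 0.11, beside a median standard error of 0.096 over all features. A typical difference is thus about as large as the error. Probes near background are limited by signal.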

Other observations

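The 13 marker and pathway lists not described above are given by their counts, beside 44.7% of all features with one direction in both sexes. That share was 63.6% for oligodendrocyte, 57.1% for red blood cell, 52.2% for glutamate and GABA receptor and 46.2% for astrocyte genes, 45.5% for striatum markers, and lower for the other 8 lists. Of 7 red blood cell genes, 4 (57.1%) were lower in both sexes and 0 higher in both, against 23.2% and 21.5% of all features. Among the lower ones was Alas2, the first enzyme of haem synthesis in red cells. The median difference of the list, small litter minus control, was -0.14 (-0.26 in females and -0.023 in males). Of 13 microglia genes, 2 were higher in both sexes, the signalling adaptor Tyrobp and the complement gene C1qb, and 2 lower in both, the complement genes C1qa and C1qc. Of 9 ependyma and tanycyte genes, 0 were higher and 2 lower, Vim, an intermediate filament gene, and Col23a1, although the list's median was 0.088. Astrocyte genes had 3 higher and 3 lower of 13, oligodendrocyte genes 4 higher and 3 lower of 11, oligodendrocyte precursor genes 1 higher and 1 lower of 8, and the pituitary list 0 higher and 2 lower of 6. The lower 2 of the pituitary list were Timeless and Chrna4, which are not hormone genes. Its hormone genes Cga, Prl, Pomc and Tshb went opposite ways in the sexes.

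Of 13 cortex and hippocampus markers, 2 were higher and 3 lower in both sexes, and of 11 striatum markers, 2 were higher and 3 lower. Immediate early genes had 1 higher and 3 lower of 16, glutamate and GABA receptors 7 higher and 5 lower of 23, monoamine genes 3 higher and 3 lower of 15, and DNA methylation genes 1 higher and 3 lower of 11. Gabbr2, a subunit of the GABA-B receptor, was higher by 0.25 ± 0.10 (adjusted p = 0.909, limma), and Htr4, a serotonin receptor, differed by -0.33 ± 0.14. None of the list scores separated the 6 small-litter from the 6 control arrays.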
